A study of Mus musculus with 30 samples.

Results

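The Smad proteins that carry signals of transforming growth factor β (TGF-β) and bone morphogenetic protein (BMP), together with the genes that damp those signals, were followed across all 15 groups of a stress experiment in mouse embryonic fibroblasts (MEFs). The members were chosen by gene name: every probe of the array named Smad1, Smad2, Smad3, Smad4, Smad5, Smad6, Smad7, Skil or Bambi, control spots left out. They were 9 of the 21689 named genes on the array and were read by 15 probes. By the transcript named on their probes, 8 of the genes also matched a RefSeq gene of the same symbol, Smad7 being the exception.

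In this pathway a ligand brings together type I and type II receptors, which phosphorylate receptor-regulated Smads. Smad2 and Smad3 serve TGF-β and activin, Smad1 and Smad5 serve BMPs, and Smad4 is the shared partner with which they enter the nucleus. Smad6 and Smad7 block the receptors or the Smads, SnoN (encoded by Skil) represses Smad target genes, and Bambi is a receptor-like protein without a kinase domain. Several of these brakes are themselves transcribed in response to the pathway, so that their mRNA is often read as a feedback signal.

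Wild type and p38α-/- MEFs, both immortalised lines, were compared during exponential growth. Each of the 30 arrays held the Cy5-labelled RNA of 1 sample against the Cy3-labelled RNA of 1 common pool of 2 untreated wild type cultures, and each of the 15 groups had 2 arrays, from independent experiments. Wild type MEFs received anisomycin (a protein synthesis inhibitor) at 25 ng/ml for 45 min, TNFα at 100 ng/ml for 45 min, or NaCl (osmostress) at 100 mM for 45 min, 2 h or 8 h. The same 5 stresses were also given after SB203580, an inhibitor of p38α and p38β, which was also given alone. The methods give SB203580 as 10 µM added 30 min before the stress, whereas the sample titles read 10 mM and 2 h. Of the p38α-/- MEFs 1 group was left without stress, and the others were given anisomycin, TNFα or 2 h of NaCl. Whether either line came from 1 embryo or 1 clone is not given in the sources used here, so genotype and line cannot be told apart.

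Every value is a log2 ratio of a sample to that pool, so 0 is the level of untreated wild type MEFs. Because no dyes were swapped, a bias of a probe toward either dye cannot be told apart from a difference from the pool, but it cancels when groups are subtracted. A value or difference passed the test when limma's adjusted p, taken over all genes measured in both arrays of each group compared, was below 0.05. Spots that the scanner software marked as outliers were left out of the tests. Mapk14, which encodes p38α, lay between -2.24 and -0.94 on the 8 arrays of p38α-/- MEFs and between 0.03 and 1.31 on the 22 wild type arrays. All 13 fibroblast markers examined were well above background in the pool on every array, but so were the 16 markers of other cell types, so this check did not separate cell types. The arrays fell into 4 scan batches: the first held replicate 1 of the wild type groups, the second held replicate 2 of the wild type groups and replicate 1 of the p38α-/- groups, and the rest held replicate 2 of the p38α-/- groups.

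Of the members, Smad7 was higher than the pool under every stress in wild type MEFs without inhibitor. The others stayed within 1 log2 unit of the pool in every group mean. The spread of the 15 group means was 0.66 (SD) for Smad7, 0.24 for Smad6, 0.22 for Bambi and between 0.11 and 0.16 for the remaining genes, outlier spots included. Against the pool, 22 of 108 member values passed the test (20.4%), beside 14.7% of the tests of all genes. All 15 probes were well above background on all 30 arrays in both channels, except 1 of the 2 Smad3 probes.

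**Figure D1:**
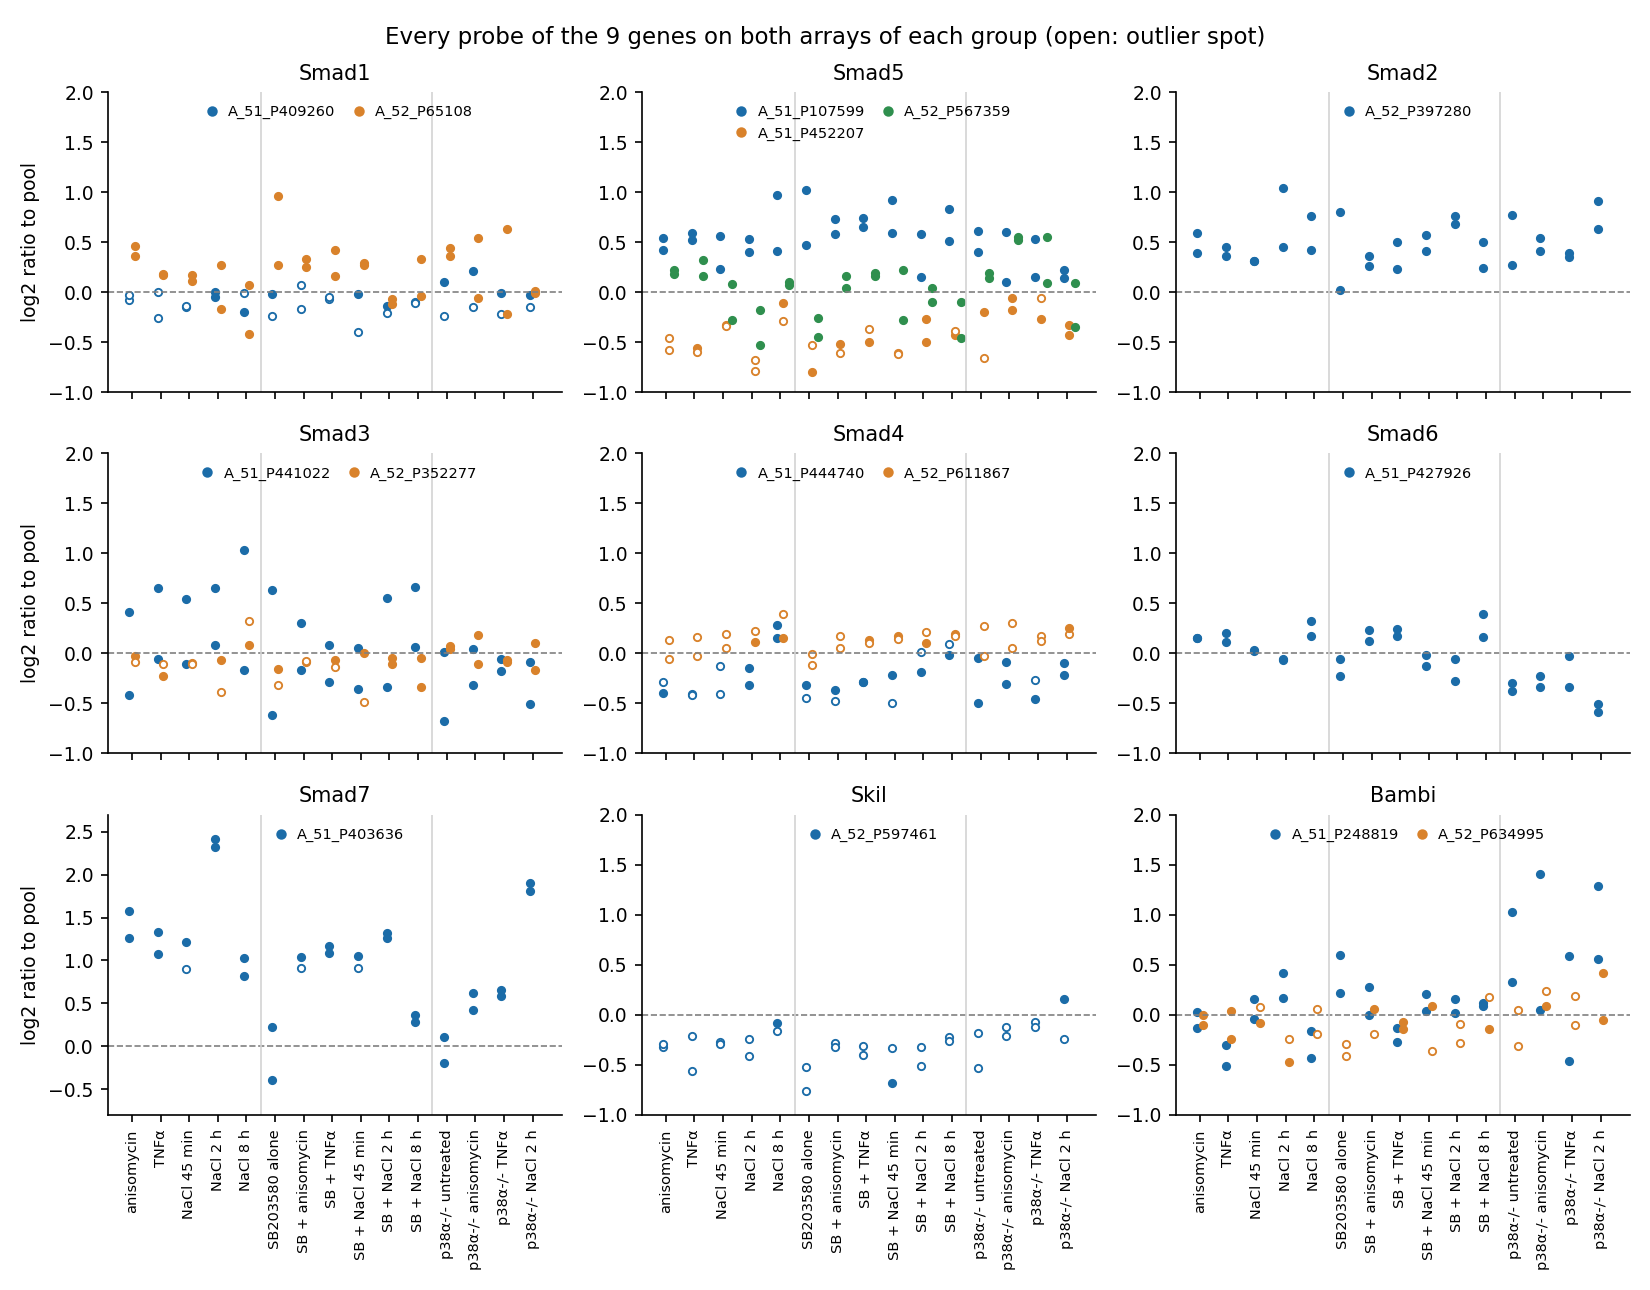
Log2 ratio to the pool (vertical axis, no unit) for every probe of the 9 genes on both arrays of each of the 15 groups (horizontal axis), with open circles for outlier spots and grey lines between wild type, SB203580-treated wild type and p38α-/- groups. Smad7 has its own vertical scale and moved the most, up to 2.42, while the 3 Smad5 probes lay apart from each other.

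Smad7, the inhibitory Smad that brings ubiquitin ligases to the TGF-β receptor, was higher than in the pool under all 5 stresses of wild type MEFs. After 2 h of NaCl the log2 ratio was 2.42 and 2.32 on the 2 arrays. It was 1.57 and 1.26 after anisomycin, and 1.34 and 1.07 after TNFα. After 45 min of NaCl it was 1.22 and 0.90, the second from an outlier spot, and after 8 h it was 0.81 and 1.03. Both arrays of the 2 h group thus stood above every other wild type array.

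The group means of Smad7 were 2.37 ± 0.07 (SD, n = 2) at 2 h of NaCl, a 5.16-fold rise over the pool (adjusted p = 3.46e-08, limma). They were 1.41 ± 0.22 for anisomycin (2.66-fold, adjusted p = 1.12e-05) and 1.20 ± 0.19 for TNFα (2.30-fold, adjusted p = 5.13e-05). At 8 h of NaCl the mean was 0.92 ± 0.15 (1.89-fold, adjusted p = 9.81e-05). The 45 min group could be tested only with the outlier spot kept. Its replicate 2 had the largest share of outlier spots of the 30 arrays, 44.8%. With that spot kept, the group mean was 1.06 ± 0.23 (2.08-fold, adjusted p = 3.57e-05). These tests are against 0 and leave out the spread of the pool itself.

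Among all genes tested, 12% passed the test after anisomycin, 11% after TNFα, 9.88% after 45 min of NaCl, 9.92% after 2 h and 22.2% after 8 h. Of the members, 2 of 7 passed after anisomycin (Smad7 and Smad1), 1 of 7 after TNFα (Smad7) and 0 of 6 after 45 min of NaCl. None of these 6 had an unadjusted p under 0.05 there, Smad7 not being among them. At 2 h of NaCl 2 of 8 passed (Smad7 and Smad2) and at 8 h 3 of 8 (Smad7, Smad2 and Smad6).

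Over the NaCl course Smad7 rose and then fell. From 2 h to 8 h it fell by 1.45 on the log2 scale (SE 0.18, 95% interval -1.83 to -1.07, adjusted p = 0.000171, limma), a 2.73-fold difference. From 45 min to 2 h it rose by 1.31 (SE 0.17, adjusted p = 0.00849) with the outlier spot kept, a 2.48-fold difference. The difference between 8 h and 45 min was -0.14 with the outlier spot kept (95% interval -0.50 to 0.22). The fall from 2 h to 8 h was the sole member difference of 20 that passed between NaCl times, while 0.0540% of all genes passed between 45 min and 2 h, 7.81% between 2 h and 8 h and 7.53% between 45 min and 8 h.

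At the shared time of 45 min the order for Smad7 was anisomycin, TNFα and NaCl, but neighbours in that order did not pass the test. Anisomycin exceeded TNFα by 0.21 (95% interval -0.17 to 0.59). TNFα exceeded NaCl by 0.15 (95% interval -0.22 to 0.51) with the outlier spot kept. None of the 19 member differences between stresses at 45 min passed the limma test, and none had an unadjusted p under 0.05. The shares of all genes that passed were 0.183% for anisomycin against TNFα, 0.289% for anisomycin against NaCl and 0.235% for TNFα against NaCl.

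**Figure D2:**
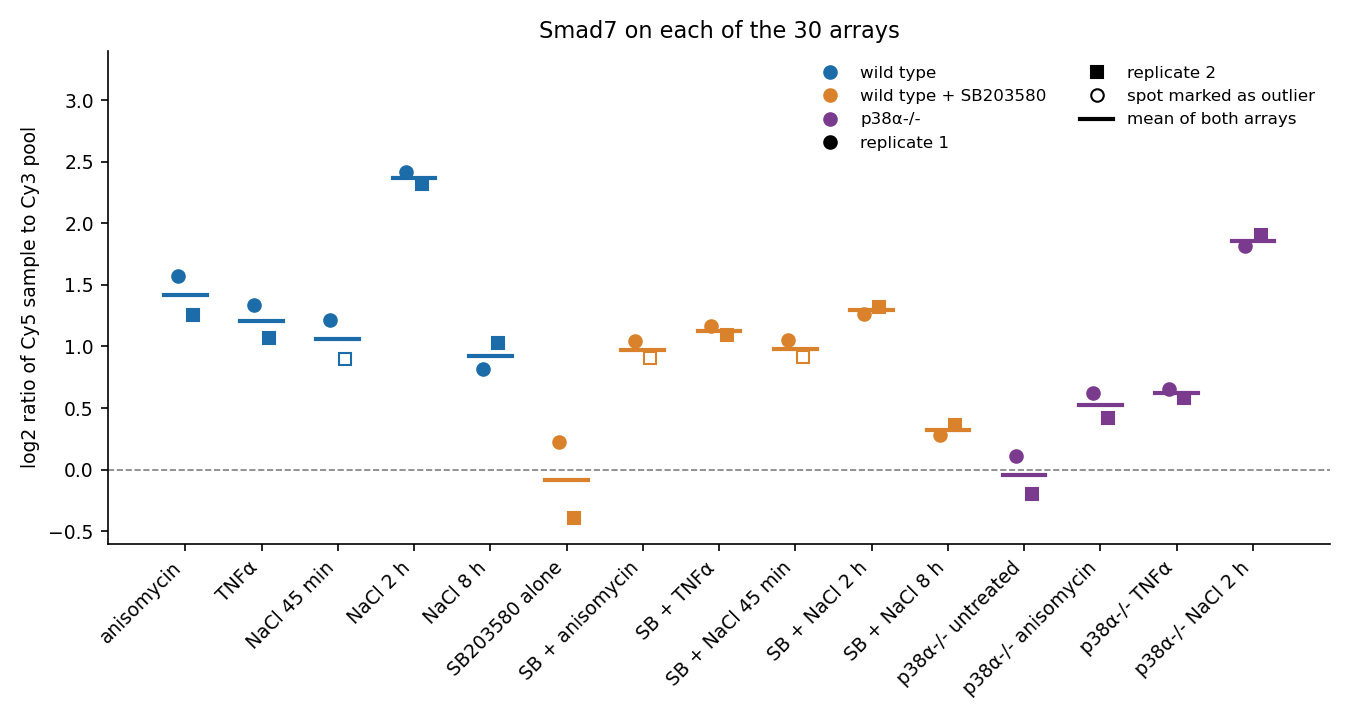
Log2 ratio of the Cy5 sample to the Cy3 pool for Smad7 (vertical axis) on each of the 30 arrays, by group (horizontal axis), with circles for replicate 1, squares for replicate 2, open symbols for outlier spots and lines for the mean of both arrays. The wild type NaCl 2 h arrays (2.42 and 2.32) are the highest, and the p38α-/- NaCl 2 h arrays (1.82 and 1.90) come next.

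SB203580 alone left Smad7 without a direction, at 0.23 and -0.39 on its 2 arrays. With the inhibitor the ratio was 1.27 and 1.32 after 2 h of NaCl and 0.28 and 0.36 after 8 h. It was 1.17 and 1.09 after TNFα, 1.04 and 0.91 after anisomycin, and 1.05 and 0.91 after 45 min of NaCl, the second value of the last 2 groups coming from outlier spots. In the inhibitor arm the 2 h group was thus closer to the other stresses than in the arm without it.

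The question behind these arrays is how much of each response needs p38α. At 2 h of NaCl, SB203580-treated MEFs had Smad7 lower than wild type MEFs by 1.15 within the first scan batch and by 1.00 within the second. The fitted difference was -1.07 (SE 0.18, 95% interval -1.46 to -0.69), a 2.11-fold lower level, with an adjusted p of 0.164 in limma. No gene of the array passed the test in that comparison, a share of 0%. The adjusted p was 0.0756 with the replicate number as a block, 0.0749 with outlier spots kept, and 0.0112 with both, a setting chosen after the values were seen. It was 0.0486 without either array of SB203580 alone, a group that enters this comparison only through the shared estimate of the spread.

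The other SB203580 differences of Smad7 were smaller. At 8 h of NaCl the difference was -0.60 (95% interval -0.98 to -0.22, adjusted p = 0.418), and within the scan batches it was -0.53 and -0.67. After TNFα it was -0.08 (95% interval -0.46 to 0.31). With outlier spots kept it was -0.44 after anisomycin (95% interval -0.80 to -0.08, adjusted p = 1.00) and -0.07 after 45 min of NaCl (95% interval -0.44 to 0.29).

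None of the 33 member differences between SB203580-treated and wild type MEFs under the same stress passed the limma test, and 2 had an unadjusted p under 0.05, both of Smad7. Few genes of any kind passed: 0.0204% after anisomycin, 0% after TNFα, 0% after 45 min of NaCl and 0.206% after 8 h.

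Measured instead from SB203580 alone, Smad7 rose in the inhibitor arm by 1.38 after 2 h of NaCl (SE 0.18, 2.60-fold, adjusted p = 0.000461) and by 1.21 after TNFα (SE 0.18, 2.31-fold, adjusted p = 0.00748). With outlier spots kept it rose by 1.06 after anisomycin (adjusted p = 0.0272) and by 1.07 after 45 min of NaCl (adjusted p = 0.0332). After 8 h the difference was 0.40 (adjusted p = 0.219). The rise after TNFα did not pass without either SB203580 plus TNFα array (adjusted p 0.113 without replicate 1 and 0.0814 without replicate 2), without replicate 2 of SB203580 alone (0.0543), or with the genotypes fitted separately (0.0535).

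Of all genes, 0.0140% passed this comparison after anisomycin, 0.0983% after TNFα, 0.0435% after 45 min, 2.87% after 2 h and 7.78% after 8 h of NaCl. Of 33 member values 3 passed, Smad7 after TNFα and after 2 h of NaCl and Smad6 after 8 h.

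The difference of the 2 inductions of Smad7, inhibitor arm minus wild type, was -0.99 after 2 h of NaCl (SE 0.22, 95% interval -1.46 to -0.52, adjusted p = 0.0379, limma). It was 0.01 after TNFα (95% interval -0.46 to 0.48), and -0.52 after 8 h (95% interval -0.98 to -0.05, adjusted p = 0.267). Without replicate 2 of SB203580 alone the difference after 8 h was -0.82 and passed (adjusted p = 0.0360). The wild type term of this comparison is the ratio to the pool, so a dye bias of the probe would enter it once. Without replicate 1 of SB203580 alone the difference after 2 h was -0.68 (adjusted p = 0.291), and without any 1 of the 4 NaCl 2 h arrays of both arms it was between -1.04 and -0.94 (adjusted p between 0.0532 and 0.184).

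In p38α-/- MEFs every Smad7 array was below the wild type arrays of the same stress, a difference that passed the test for anisomycin, and untreated p38α-/- MEFs were near the pool. Untreated p38α-/- MEFs had ratios of 0.11 and -0.20. The ratio was 0.62 and 0.42 after anisomycin and 0.66 and 0.58 after TNFα. After 2 h of NaCl it was 1.82 and 1.90, against 2.42 and 2.32 in wild type MEFs. Against the pool, the means were 0.52 ± 0.14 after anisomycin (adjusted p = 0.0149, limma), 0.62 ± 0.05 after TNFα (adjusted p = 0.00795) and 1.86 ± 0.06 after NaCl (adjusted p = 3.10e-07). The first did not pass without its replicate 1 (adjusted p = 0.170) or its replicate 2 (0.0859), nor the second without its replicate 1 (0.209) or its replicate 2 (0.0659).

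For anisomycin, the fitted difference of Smad7 between p38α-/- and wild type MEFs was -0.89 (SE 0.18, 95% interval -1.27 to -0.51, adjusted p = 0.0225, limma), a 1.86-fold lower level. Within the scan batch that held both genotypes the difference was -0.63, and with scan batch as a term it was -0.76 (adjusted p = 0.0688). The call was lost without wild type replicate 1 (-0.73, adjusted p = 0.275) and without p38α-/- replicate 2 (-0.79, adjusted p = 0.168). The difference was -0.58 for TNFα (95% interval -0.97 to -0.20, adjusted p = 0.280, -0.41 within the batch) and -0.51 for NaCl at 2 h (95% interval -0.89 to -0.13, adjusted p = 0.268, -0.50 within the batch).

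Smad7 after anisomycin was the sole member difference of 22 that passed between genotypes, and 7 had an unadjusted p under 0.05. With the replicate block 3 passed, the others being Smad6 after NaCl (-0.49, adjusted p = 0.0482) and Bambi after anisomycin (0.79, adjusted p = 0.0271). Of all genes, 1.27% passed after anisomycin, 0.414% after TNFα and 0.697% after NaCl.

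Relative to untreated p38α-/- MEFs, Smad7 rose by 1.90 after 2 h of NaCl (SE 0.18, 3.74-fold, adjusted p = 7.14e-05), the sole member value of 23 that passed. The difference was 0.56 after anisomycin (95% interval 0.18 to 0.95, adjusted p = 1.00) and 0.66 after TNFα (95% interval 0.28 to 1.04, adjusted p = 0.753). The shares of all genes that passed were 0.0847% after anisomycin, 0.0780% after TNFα and 1.08% after NaCl.

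Set against the wild type induction, the p38α-/- induction of Smad7 was smaller by 0.85 after anisomycin (95% interval -1.32 to -0.38 for the difference, adjusted p = 0.0916), and it passed with the replicate block (adjusted p = 0.0420) and with outlier spots kept (adjusted p = 0.0212). None of its Smad7 spots was an outlier, so keeping them left the difference unchanged, and 7.2% of all genes passed in that setting. It also passed with normexp and loess (-1.05, adjusted p = 0.0300) and without either array of SB203580 alone (adjusted p = 0.0445), a group that enters only through the shared spread. The difference was -0.54 after TNFα (adjusted p = 0.279) and -0.47 after NaCl (adjusted p = 0.367). Of 55 member differences of induction in both arms 1 passed, that of Smad7 with SB203580 and 2 h of NaCl, and 9 had an unadjusted p under 0.05. Of all genes, 0.583%, 0.651%, 0.0936%, 1.65% and 0.295% passed with SB203580 for anisomycin, TNFα and NaCl at 45 min, 2 h and 8 h. In the p38α-/- arm 0.542% passed for anisomycin, 0.450% for TNFα and 0% for NaCl.

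Smad6, the inhibitory Smad that acts mainly on BMP signalling, moved little with stress and lay lower in p38α-/- MEFs. No Smad6 difference between genotypes under the same stress passed the main test. The single Smad6 probe was below the pool on all 8 p38α-/- arrays and above it on 14 of the 22 wild type arrays. Untreated p38α-/- MEFs had ratios of -0.30 and -0.37, and those given NaCl for 2 h had -0.51 and -0.59. The ratio was -0.34 and -0.23 after anisomycin and -0.34 and -0.03 after TNFα, the last from the array that formed a scan batch of its own.

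The p38α-/- group means of Smad6 were -0.33 ± 0.05 untreated (adjusted p = 0.0124, limma), -0.28 ± 0.08 after anisomycin (adjusted p = 0.0351), -0.18 ± 0.22 after TNFα (adjusted p = 0.214) and -0.55 ± 0.06 after NaCl (adjusted p = 0.000282), each over 2 arrays. The untreated value did not pass without its replicate 1 (adjusted p = 0.139) or its replicate 2 (0.127), nor did the anisomycin value without its replicate 1 (0.265) or its replicate 2 (0.153). With scan batch as a term the anisomycin value was -0.27 (adjusted p = 0.0544).

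Between genotypes under the same stress, Smad6 was lower in p38α-/- MEFs by 0.44 after anisomycin (95% interval of the difference -0.69 to -0.19, adjusted p = 0.0941), by 0.34 after TNFα (-0.59 to -0.09, adjusted p = 0.384) and by 0.49 after NaCl (-0.74 to -0.24, adjusted p = 0.0708). None passed the limma test with outlier spots left out and no block. With outlier spots kept, the NaCl difference passed (adjusted p = 0.0457, limma), its value unchanged because no Smad6 spot was an outlier. With the log2 ratios deposited by the authors, the differences after anisomycin and NaCl passed (adjusted p = 0.0341 and 0.0342, limma). Within the second scan batch the differences were -0.49 after anisomycin, -0.55 after TNFα and -0.44 after NaCl. The difference of induction of Smad6 between genotypes was near 0 for TNFα at -0.01 (95% interval -0.31 to 0.30), and it was -0.10 for anisomycin (-0.41 to 0.20) and -0.15 for NaCl (-0.46 to 0.15).

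In wild type MEFs Smad6 stood above the pool at 8 h of NaCl, at 0.32 and 0.17, with a mean of 0.25 ± 0.11 (adjusted p = 0.0410, limma). With SB203580 the 8 h arrays read 0.17 and 0.40, a mean of 0.28 ± 0.16 (adjusted p = 0.0226), which exceeded SB203580 alone by 0.42 (SE 0.12, adjusted p = 0.0349). The first of these did not pass without its replicate 1 (adjusted p = 0.426) or its replicate 2 (0.10), or without either array of SB203580 plus TNFα (0.0512), and the second not without its replicate 2 (0.421). The rise over SB203580 alone did not pass without any 1 of the 4 arrays involved, with adjusted p between 0.0501 and 0.287. The SB203580 differences of Smad6 under the same stress lay between -0.10 and 0.05, and their 95% intervals together ran from -0.35 to 0.30.

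**Figure D3:**
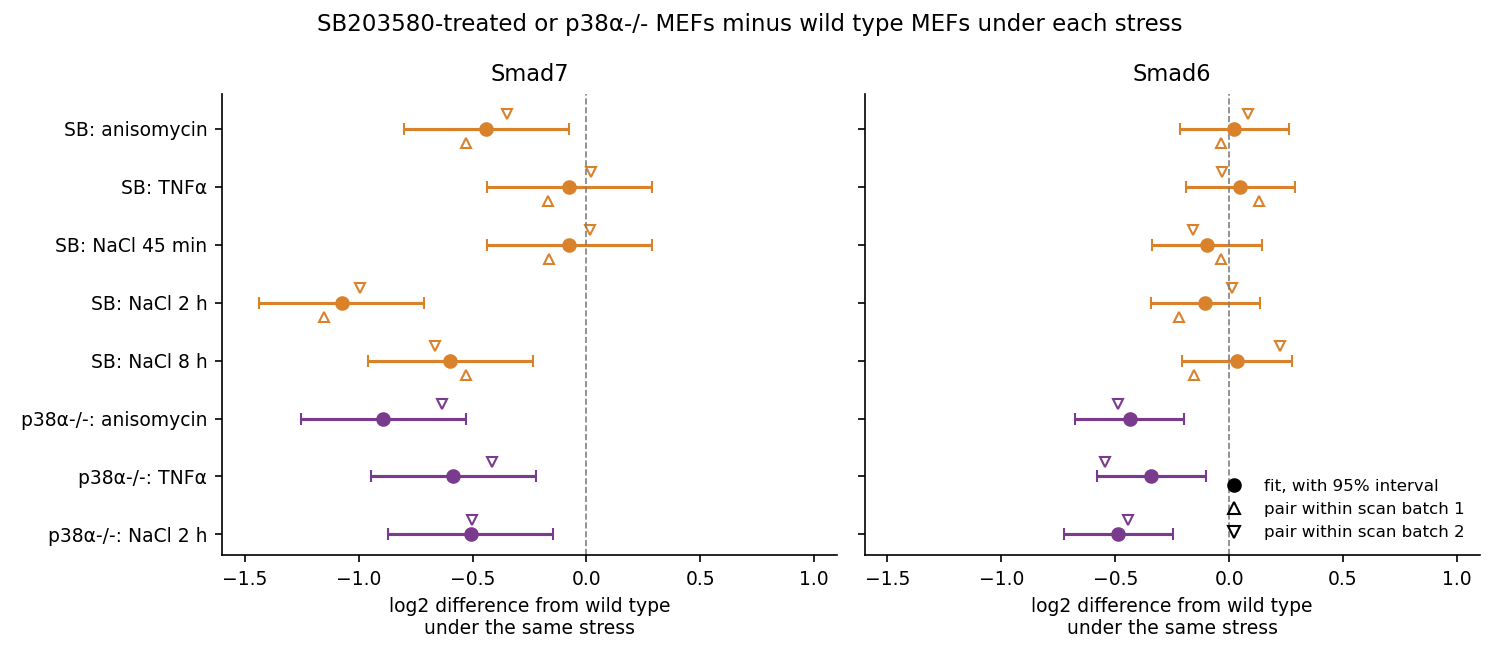
Log2 difference (horizontal axis) of SB203580-treated or p38α-/- MEFs from wild type MEFs under the same stress (vertical axis) for Smad7 and Smad6 with outlier spots kept, as the fitted value with its 95% interval and, as open triangles, the pairs of arrays within a scan batch. Smad7 was lowest with SB203580 at 2 h of NaCl (-1.07), and Smad6 lay below 0 in the 3 p38α-/- comparisons (-0.44, -0.34 and -0.49).

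Among the receptor-regulated Smads of the TGF-β and activin branch, Smad2 lay above the pool on all 30 arrays, between 0.02 and 1.04 with a median of 0.43. The highest group means were 0.77 ± 0.19 in p38α-/- MEFs and 0.74 ± 0.41 in wild type MEFs, both after 2 h of NaCl, and the lowest was 0.31 after 45 min. The 2 wild type arrays of the 2 h group differed, at 1.04 and 0.45. An excess in every group, inhibitor-treated and untreated p38α-/- MEFs included, cannot be told apart from a dye bias of the probe.

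Of the 15 Smad2 means, 6 passed the test against the pool: NaCl at 2 h and 8 h, SB203580 with NaCl at 45 min and 2 h, and p38α-/- MEFs untreated and after NaCl (adjusted p between 0.00281 and 0.0421, limma). Each lost its call without 1 of its own arrays. The mean was 0.45 (adjusted p = 0.426) without replicate 1 of NaCl at 2 h, 0.42 (0.273) without replicate 2 of NaCl at 8 h, 0.27 (0.650) without replicate 1 of untreated p38α-/- MEFs and 0.63 (0.0863) without replicate 1 of NaCl-treated p38α-/- MEFs. For SB203580 with NaCl, leaving out either array ended the call, with adjusted p of 0.195 and 0.308 at 45 min and 0.0621 and 0.143 at 2 h. With the replicate block Smad2 also passed after anisomycin (adjusted p = 0.0299), with SB203580 alone (0.0447) and in p38α-/- MEFs after anisomycin (0.0370). No difference of Smad2 between groups passed. Between NaCl times the widest was 0.43 from 45 min to 2 h (95% interval -0.04 to 0.90, adjusted p = 0.878).

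Smad3 is read by 2 probes that did not follow each other (r = -0.0009 over the 30 arrays, which share the pool). Probe A_51_P441022 was the dim one, well above background in the Cy5 channel on 18 of 30 arrays. It lay above the pool on all 11 arrays of the first scan batch, between 0.05 and 1.03, and on 2 of the 11 wild type arrays of the second, between -0.62 and 0.08. Replicate 1 exceeded replicate 2 in all 11 wild type groups and in the 4 p38α-/- groups. Probe A_52_P352277 stayed between -0.49 and 0.33. No Smad3 mean or difference passed the test, except that after 8 h of NaCl with outlier spots kept and the replicate block, which takes up that shift, the mean did (0.32, adjusted p = 0.00892, limma).

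Smad1 and Smad5, the BMP-regulated Smads, were read by probes that disagreed with each other. Smad1 passed the test against the pool after anisomycin (0.46 and 0.36, mean 0.41, adjusted p = 0.0434, limma) and with SB203580 alone (0.47 and 0.27, mean 0.37, adjusted p = 0.0391). With outlier spots of the other probe kept, the means were 0.18 (adjusted p = 0.346) and 0.24 (adjusted p = 0.144). Both calls were also lost without either of their own arrays (adjusted p 0.420 and 0.142 for anisomycin, 0.479 and 0.0618 for SB203580 alone). Probe A_52_P65108 was above the pool on 22 arrays and never marked as an outlier, whereas A_51_P409260 was below it on 26 arrays and an outlier on 18. For SB203580 alone, the tested value of replicate 1 averaged both probes, 0.96 from A_52_P65108 and -0.02 from A_51_P409260. That of replicate 2 came from A_52_P65108 alone, at 0.27.

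The 3 Smad5 probes stood apart from one another. A_51_P107599 lay above the pool on all 30 arrays, between 0.10 and 1.02, and A_51_P452207 below it on all 30, between -0.80 and -0.06. A_52_P567359 was above it on 20 arrays, between -0.53 and 0.55. Probes of 1 gene that disagree in sign in every sample cannot be told apart from dye bias or from transcript forms. Averaged over its probes, no Smad5 value or difference passed the test with outlier spots left out and no batch term. With scan batch as a term the gene mean passed after anisomycin (0.38, adjusted p = 0.0496, limma) and after 8 h of NaCl (0.36, adjusted p = 0.0450). There A_51_P452207, the probe always below the pool, was left out as an outlier on both anisomycin arrays and on replicate 2 at 8 h. With outlier spots kept and no batch term, the means were 0.05 (adjusted p = 0.687, limma) and 0.19 (0.122). The brightest probe alone, A_51_P107599, passed against the pool in 9 groups, with means of 0.48 to 0.76 (adjusted p between 0.00193 and 0.0458). The gene mean passed in p38α-/- MEFs after anisomycin with outlier spots kept (0.25, adjusted p = 0.0457).

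Smad4, the shared partner, is read by 2 probes of opposite sign that did rise and fall together (r = 0.67 over the 30 arrays, as a description). A_52_P611867 lay above the pool on 25 arrays, from -0.11 to 0.40, and A_51_P444740 below it on 26, from -0.50 to 0.28. Both probes gave their highest wild type group mean after 8 h of NaCl, with both arrays above 0. The gene mean of that group was 0.25 ± 0.13 (adjusted p = 0.0459, limma) with outlier spots kept and 0.22 ± 0.09 (adjusted p = 0.330) without them. Against 2 h of NaCl it was higher by 0.38 with outlier spots left out (95% interval -0.06 to 0.83, adjusted p = 0.343). In that setting replicate 2 of both groups was read by A_51_P444740 alone. With outlier spots kept, the 2 h mean was -0.03.

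Skil encodes SnoN, a corepressor that holds Smad complexes inactive and is degraded when TGF-β signals. Its single probe was marked as an outlier on 27 of the 30 arrays, so no group could be tested in the way used for the other genes. With those spots kept, it lay below the pool on 29 arrays, between -0.76 and 0.15 with a median of -0.29. By group mean, SB203580 alone was the lowest, with arrays at -0.76 and -0.52, and p38α-/- MEFs after NaCl the highest, at -0.25 and 0.15, although arrays of other groups lay between these values. The arrays of wild type MEFs after 8 h of NaCl were also near the pool, at -0.08 and -0.17.

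With outlier spots kept, 9 of the 15 Skil means passed the test against the pool, all of them lower, beside 13% to 41.4% of all genes over the 15 groups. The lowest was SB203580 alone at -0.64 ± 0.17 (adjusted p = 0.000218, limma). A lower ratio in nearly every group cannot be told apart from a dye bias. Between groups, where such a bias cancels, no direct difference of Skil passed. Against SB203580 alone the stressed inhibitor groups were higher by 0.13 to 0.40, with adjusted p no lower than 0.119. Differences of induction of Skil, which take up a dye bias once, passed with SB203580 for anisomycin (0.65, adjusted p = 0.0423) and TNFα (0.67, 0.0332) and in p38α-/- MEFs for TNFα (0.65, 0.0404). With outlier spots kept, 8.43%, 8.9% and 8.13% of all genes passed in these comparisons.

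Bambi, the decoy receptor, is read by a probe printed 10 times on each array, A_51_P248819, and by A_52_P634995, whose spot was an outlier on 16 arrays. In p38α-/- MEFs the printed-10-times probe gave 0.32 and 1.03 untreated, 0.05 and 1.41 after anisomycin, -0.46 and 0.59 after TNFα, and 0.56 and 1.28 after NaCl. Replicate 2 was the higher array in all 4 groups, and it was scanned in other batches than replicate 1.

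On the 22 wild type arrays that Bambi probe ranged from -0.52 to 0.59. The 4 p38α-/- arrays of the second scan batch ranged from -0.46 to 0.56 with a median of 0.19, against -0.30 to 0.28 and a median of 0.15 on the wild type arrays of the same batch. The 3 p38α-/- arrays of the third batch, which held no wild type array, ranged from 1.03 to 1.41. The excess in p38α-/- MEFs and the third batch cannot be told apart. A_52_P634995 ranged from -0.31 to 0.42 over all 8 p38α-/- arrays.

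Tested as the other genes were, no Bambi mean or difference passed. The genotype difference was 0.79 after anisomycin (95% interval 0.04 to 1.54, adjusted p = 0.371), 0.32 after TNFα (-0.43 to 1.08) and 0.42 after NaCl (-0.33 to 1.17). The replicate block, which takes up the shift between replicates within a genotype but not a batch that differs between genotypes, gave it an adjusted p of 0.0271 after anisomycin. Without p38α-/- replicate 1 it was 1.46 (adjusted p = 0.0392), from the third-batch array alone. Within the scan batch that held both genotypes the difference was 0.06 after anisomycin, 0.13 after TNFα and 0.41 after NaCl. With scan batch as a term it was 0.35 after anisomycin (adjusted p = 0.553), -0.20 after TNFα and -0.02 after NaCl. Against the pool the block also gave calls to Bambi in SB203580 alone (0.40, adjusted p = 0.0289) and in untreated (0.68, 0.00234), anisomycin-treated (0.74, 0.00137) and NaCl-treated (0.55, 0.00723) p38α-/- MEFs. Without the block, the SB203580 value passed with scan batch as a term (0.53, adjusted p = 0.0104) and with the genotypes fitted separately (0.0274). The anisomycin value passed with normexp and loess (0.0421), with probes well above background on every array (0.0397), without either p38α-/- TNFα array (0.0432) and without its own replicate 1 (1.41, 0.00564). The untreated value passed with normexp and loess (0.71, 0.0361) and without either p38α-/- anisomycin array (0.0332). The p38α-/- values after NaCl (0.55, adjusted p = 0.0126) and anisomycin (0.45, 0.0433) passed with outlier spots kept.

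**Figure D4:**
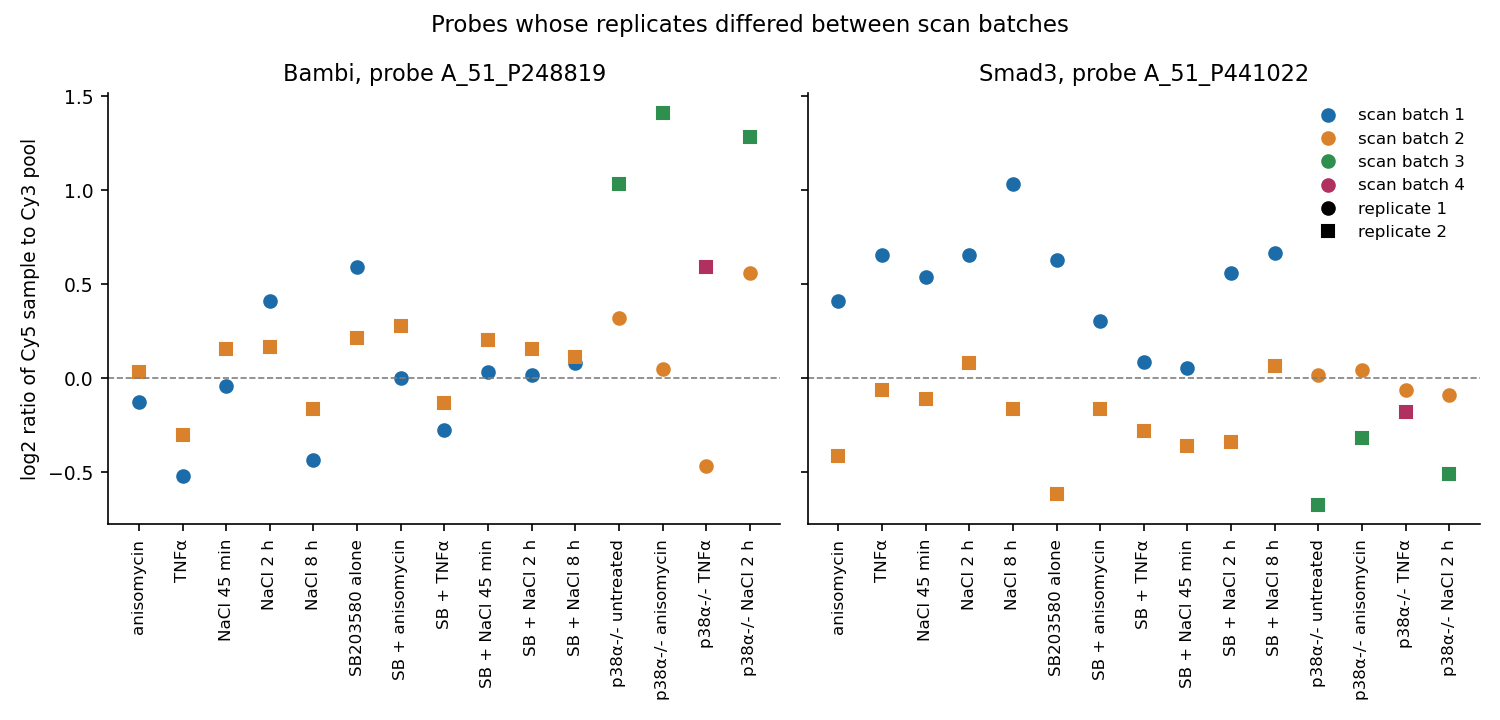
Log2 ratio to the pool (vertical axis) of Bambi probe A_51_P248819 and Smad3 probe A_51_P441022 on each array by group (horizontal axis), with colours for the 4 scan batches, circles for replicate 1 and squares for replicate 2. The p38α-/- arrays of the third batch (1.03 to 1.41) are the highest for Bambi, and for Smad3 all 11 arrays of the first batch lie above 0 (0.05 to 1.03).

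In the other groups, the members passed the test against the pool as follows. With SB203580 alone 1 of 7 passed (Smad1) beside 26.6% of all genes. With SB203580 and stress, 0 of 6 passed after anisomycin (11.7% of all genes), with 1 at an unadjusted p under 0.05, and 1 of 8 after TNFα (9.52%), Smad7. It was 1 of 6 after 45 min of NaCl (16.8%), 2 of 7 after 2 h (17.1%) and 1 of 7 after 8 h (21.2%). In p38α-/- MEFs 2 of 8 passed untreated (15%), 2 of 8 after anisomycin (12.4%), 1 of 7 after TNFα (7.61%) and 3 of 8 after NaCl (18%). Over the 15 groups the members passed in 20.4% of their tests, beside 14.7% of the tests of all genes, and 9 of their 22 calls were of Smad7, 6 of Smad2, 5 of Smad6 and 2 of Smad1.

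Beyond the members, 84 genes of TGF-β and BMP signalling were on the array as ligands, receptors, extracellular or intracellular regulators, or transcriptional targets. Against the pool, 8 rose and 3 fell of 52 tested after anisomycin, 7 and 3 of 52 after TNFα, and 3 and 3 of 46 after 45 min of NaCl. After 2 h of NaCl 8 rose and 1 fell of 68, and after 8 h 13 rose and 3 fell of 59. In either direction, 12%, 11%, 9.88%, 9.92% and 22.2% of all genes passed in these groups. The median log2 ratio of the tested genes was 0.07, 0.11, 0.07, 0.13 and 0.13 in that order, and that of all genes was between 0.00 and 0.01. With SB203580 alone and no stress, 5 rose and 6 fell of 50 tested, where 26.6% of all genes passed.

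Under stress, receptors gave 1 call of 7 tested after TNFα, 1 of 9 after 2 h and 2 of 7 after 8 h of NaCl, all higher. In these groups 11%, 9.92% and 22.2% of all genes passed. With SB203580 alone, 1 receptor was higher and 1 lower of 8 tested, where 26.6% of all genes passed. Transcriptional targets gave 5 of 12 higher after anisomycin, 4 of 13 after TNFα, 2 of 12, 3 of 15 and 5 of 16 after the 3 NaCl times. Beside these, 12%, 11%, 9.88%, 9.92% and 22.2% of all genes passed in either direction. Lower were Col1a1 after anisomycin and Cdkn1a after 8 h of NaCl. Single arrays were left out in turn for the members only.

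Id2, an inhibitor of basic helix-loop-helix factors and a BMP target, was at 1.59 ± 0.29 after anisomycin and at 1.20 ± 0.02, 2.41 ± 0.19 and 1.61 ± 0.18 after the 3 NaCl times (adjusted p between 1.77e-07 and 0.000669, limma). Id2 also passed as higher after TNFα and, without stress, with SB203580 alone. Id1, its relative, reached 1.54 ± 0.16 after anisomycin (adjusted p = 1.40e-05).

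Of the other genes with the largest calls, Bhlhb2, a transcriptional repressor, was at 1.11 ± 0.49 after TNFα (adjusted p = 0.0301), and Junb, an AP-1 subunit, at 1.29 ± 0.48 after 2 h of NaCl (adjusted p = 0.0172). Tgif, a Smad corepressor, was at 1.74 ± 0.60 after 2 h of NaCl (adjusted p = 0.000161), and also passed as higher with SB203580 alone. The ligand gene Tgfb3 was at -0.97 ± 0.16 after TNFα and -0.70 ± 0.17 after 45 min of NaCl (adjusted p = 0.00829 and 0.0499). Tgfb3 also passed as lower after anisomycin, and without stress with SB203580 alone and in untreated p38α-/- MEFs. A lower value in unstressed groups too cannot be told apart from a dye bias. After 8 h of NaCl the ligand genes Inhba and Tgfb2 were at 1.53 ± 0.27 and 1.28 ± 0.22 (adjusted p = 0.0281 and 2.20e-06). Tgfb2 also passed as higher after anisomycin, TNFα and 45 min of NaCl, and in untreated p38α-/- MEFs.

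In untreated p38α-/- MEFs 6 genes of the pathway were higher and 5 lower than the pool of 55 tested, where 15% of all genes passed, with a median of -0.08 against 0.01 for all genes. Fst, which encodes the activin antagonist follistatin, gave -2.56 and -2.07, a mean of -2.31 ± 0.34 (adjusted p = 4.90e-05, limma). Inhbb, an activin subunit, was at 1.20 ± 0.39 (adjusted p = 0.000537), and the ligand gene Gdf6 gave 2.06 and 0.57, a mean of 1.31 ± 1.05 (adjusted p = 0.00851).

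The genes whose 15 group means ran closest to those of a member were found among genes measured in every group whose means had an SD of at least 0.5. For Smad7 these were Smgc, Rhoe and Ier5 (Pearson's r of 0.82, 0.82 and 0.81), and for Smad6 they were 9130022E09 and Serpinb6b (0.86 and 0.85). For Bambi they were Nphp4, Hebp1 and Tctex1 (0.87, 0.87 and 0.82). For Skil, outlier spots kept, they were Ahnak, A230059G12Rik and A930006D11 (0.86, 0.86 and 0.85). All 15 means share the pool, and these are the highest of 633 to 641 values of r for each member, so they are a description.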

How the data were processed

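Two-colour Agilent arrays were scanned once per sample, and the authors deposited 1 scanner file per array and a table of log2 ratios. In the scanner files LogRatio is the log10 of the Cy5 over the Cy3 processed signal, which Agilent Feature Extraction (8.1.1.1 in the deposited file headers, 9.1 in the submitters' processing notes) had background-corrected, dye-normalised by a linear and LOWESS step and filled with surrogates for dim signals. The processed and mean intensity columns deposited in the same files served for background flags and for an alternative. LogRatio was multiplied by log2 of 10, which gives log2 values. The table deposited by the authors, rounded log2 ratios, was used as an alternative. No comparison columns were used.

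Spots marked as outliers in either channel and control spots were left out, spots of a probe were averaged, then probes of a gene (33453 of 41174 probes carried a gene name). Group means were fitted to all 30 arrays with limma 3.58.1 in R 4.3.3, with empirical Bayes and Benjamini-Hochberg adjustment over all genes with both arrays in each group. On each array 81.1% to 96.8% of probes were well above background in Cy5 and 92.6% to 98.9% in Cy3, and 6.78% to 44.8% were outliers. With 2 arrays in each group, their number limits how precise a value can be. The steps were tested on simulated data with independent noise on each array, so shifts shared by replicates or scan batches were not simulated.

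Deviations from group means correlated above 0.1 between same-numbered groups in all 55 pairs of wild type groups (median 0.46), all 6 of p38α-/- groups (0.25) and 6 of 44 across genotypes. Replicate numbers were therefore taken as pairing samples within a genotype, but only in the replicate block. The main tests carried no such term. In wild type MEFs replicate number and scan batch coincide, so pairing and batch cannot be told apart.

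All 9 members are described. From the pathway lists, the 3 largest calls of each wild type stress and of untreated p38α-/- MEFs are named, and for 4 members the 3 most similar genes. Of the genes these rules name, 2 are not reported here. The members and lists were chosen with earlier results of these data known. Alternatives were other processing of the signals, centring, probe choice, filters, kept outliers, a replicate block, scan batch, separate genotypes, a 2-fold rule and leaving out each array.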

Additional observations from a re-analysis of the deposited data

Results flagged for a closer look

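For Smad7, the induction by 2 h of NaCl in SB203580-treated MEFs, measured from SB203580 alone, was smaller than the wild type induction, measured from the pool. The difference was -0.99 (SE 0.22, adjusted p = 0.0379, limma), and its SE leaves out the spread of the pool. The call was lost without replicate 1 of SB203580 alone (-0.68) and without any NaCl 2 h array of both arms. It was also lost without either array of SB203580 plus TNFα or plus 8 h of NaCl, and with the genotypes fitted separately (adjusted p = 0.0552, limma). The inhibitor arm read 1.27 and 1.32 after NaCl and 0.23 and -0.39 with SB203580 alone, against 2.42 and 2.32 in the wild type arm, so every array of the stressed inhibitor group lay below both wild type arrays. The direct difference between the stressed arms had an adjusted p of 0.164, since that comparison is adjusted over its own genes. No other member value met a condition for a closer look. Groups of 2 arrays are too small to test for a single array that stands apart.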

How the results depend on the processing

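Of the 29 member values and differences that passed, none changed sign under any alternative. Leaving out 1 array ended 18 of them, and 11 of these were also lost under another alternative, the 2-fold rule aside. The counts of calls were 22 against the pool, 1 between NaCl times, 0 between stresses, 0 with SB203580, 1 between genotypes, 3 and 1 for inductions from SB203580 alone and from untreated p38α-/- MEFs, and 1 for differences of induction. With outlier spots kept they became 39 against the pool, 2 between times, 2 between genotypes, 5 for SB203580 inductions and 5 for differences of induction, 135 rather than 108 member values against the pool being tested. The authors' table gave 39, 3, 3, 5 and 3 in that order. More genes of any kind passed with outlier spots kept: 13% to 41.4% against the pool and 0.669% to 9.5% for differences of induction. The shares were 0.143% to 8.35% between times, 0.489% to 1.57% between genotypes and 0.0277% to 8.28% for SB203580 inductions. For the other alternatives the share of all genes was not counted. Normexp with loess gave 2 differences of induction. The brightest probe of each gene gave 31 calls against the pool of 68 tested, 9 of them of Smad5. The replicate block gave 29 against the pool, 3 between genotypes and 2 differences of induction, and it changed no call beyond those given beside the results. With outlier spots kept and the block, chosen after seeing the data, the counts were 45 against the pool, 3 between times, 1 with SB203580, 5 between genotypes, 5 SB203580 inductions and 7 differences of induction. Scan batch as a term left 0 between genotypes, and separate fits of the genotypes left 0 differences of induction (Smad7 at an adjusted p of 0.0552). The separate fits also ended the calls against the pool in p38α-/- MEFs other than those after NaCl, and that of Smad2 with SB203580 and 45 min of NaCl. Requiring a 2-fold change as well left 6 against the pool, 0 between genotypes and 0 differences of induction. The cause of these shifts was not tested unless stated. Leaving out each array gave 19 to 25 calls against the pool, 1 between times, 0 between stresses, 0 to 1 with SB203580, 0 to 2 between genotypes, 1 to 3 and 1 for the inductions, and 0 to 5 differences of induction. A group of 2 arrays reduced to 1 was assumed to vary like the others. Smad3 probe A_51_P441022, dim in Cy5, is limited by its signal over background.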
